A study of Mus musculus with 20 samples.

Results

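The respiratory chain subunits encoded in the nucleus were described in mouse gastric organoids with and without p53. The members were taken by gene symbol, as every row whose symbol begins with Nduf followed by a, b, c, s or v and a digit, with Uqcr, with Cox and a digit from 4 to 8, or with Atp5, together with Sdha, Sdhb, Sdhc and Sdhd. The rule found 84 of the 24047 symbols in the count table: 37 for complex I, 4 for complex II, 8 for complex III, 18 for complex IV and 17 for complex V. Enough reads for testing were present for 78 of them, namely 36, 4, 8, 13 and 17 in the same order. Symbols do not equal function throughout. Atp5s and Atp5sl fit the rule but are not counted today as subunits of the ATP synthase, Ndufa4 is now placed in complex IV, and Cox7a2l is known as a factor that joins complexes III and IV.

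As background, complex I (NADH dehydrogenase) and complex II (succinate dehydrogenase) pass electrons to ubiquinone, complex III (the cytochrome bc1 complex) passes them on to cytochrome c, and complex IV (cytochrome c oxidase) hands them to oxygen. Complexes I, III and IV pump protons out of the mitochondrial matrix, and complex V (the ATP synthase) makes ATP from their return. Most subunits are encoded in the nucleus and a few core ones in mitochondrial DNA, so both genomes have to be expressed together. In the stomach the acid-secreting parietal cell is especially rich in mitochondria. The subunits encoded in mitochondrial DNA were not analysed here.

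The study sequenced mRNA from organoids, which are epithelial cultures grown in conditioned medium from gastric tissue of BL/6 mice, in 20 libraries of 8 lines; all groups share that strain. The wild-type lines 300 and 1269 were not dysplastic and the wild-type lines 565 and 752 were. Of the lines labelled p53 KO, line 650 (KO made in vivo) and line 1270 (KO made ex vivo) were not dysplastic, and lines 794 and 801 (both in vivo) were dysplastic. The labels give neither the age of the mice, nor the method of knockout, nor whether each line comes from its own mouse. The p-values therefore describe how far these cultures differ among themselves, which may be technical variation. Non-dysplastic lines had 2 libraries each and dysplastic lines 3 each, numbered in the labels, and the highest-numbered library of a line is called its last library below.

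Library totals ran from 5669521 to 16323270 counts and line sums from 22217126 to 36880593. Trp53, which encodes p53, was at 101 to 163 CPM (read counts scaled to library size, here with TMM, the trimmed mean of M-values) in the wild-type libraries and at 4.30 to 33.8 CPM in the libraries labelled KO. Its log2 fold change over lines was -3.17 ± 0.60 (SE), with an adjusted p of 0.739 in edgeR's quasi-likelihood test over all genes. Xist was at 0.572 and 0.651 CPM in lines 300 and 650 and at 317 to 668 CPM in the other 6 lines, so the 4 dysplastic lines all carry the female pattern. Gastric epithelial markers summed to 12218 to 20193 CPM per line. Most of this came from the keratin genes Krt8, Krt18 and Krt19 with Cdh1 and Epcam, so the sum says little on gastric cell types. Of the other genes listed, Tff1 was at 0.0652 to 0.432 CPM, Muc5ac at 1.63 to 461 CPM and Gkn3 at 440 to 3292 CPM. Of the 8 genes listed as parietal cell markers, Atp4b, the beta subunit of the proton pump that defines that cell, was at 0 in every line. Atp4a, the other proton pump gene listed, was at 0.676 to 1.87 CPM. The 8 genes summed to 127 to 236 CPM in dysplastic and 199 to 742 CPM in non-dysplastic lines, mostly from genes other than the pump. Markers of striated muscle, immune cells, fibroblasts and endothelium summed to at most 42.4, 52.4, 35.8 and 8.35 CPM. In 6 of the 8 lines (300, 650, 565, 752, 794 and 801) the last library stood apart in the members. Their mean log2(CPM + 1) was 7.04 to 7.68 there and 6.29 to 6.79 in all other libraries. By chi-square per degree of freedom between libraries, lines 1269 (35.8) and 1270 (65.4) differed inside as well. Line 300 had 69.9, and the last library of line 565 had 23.5 and 26.7. The 6 were set with the values known, and results over lines are given with and without those 6 libraries.

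Levels were compared between members as CPM per kilobase of transcript, using the mean over 8 lines. The length of a gene was the median over its GENCODE M21 protein-coding transcripts, whichever of them these cells express. Atp5b, the catalytic beta subunit of the ATP synthase, was highest at 1084 CPM per kilobase, with its partner Atp5a1, the alpha subunit, at 568. In complex III the small hinge protein gene Uqcrh had 772 CPM per kilobase, against 201 and 197 for the core proteins Uqcrc1 and Uqcrc2. Complex IV had 4 ubiquitous subunit genes above 500: Cox8a at 729, Cox6b1 at 694, Cox4i1 at 616 and Cox6a1 at 535 CPM per kilobase. Complex II genes were at 365 (Sdhd, a membrane anchor), 137 (Sdhb, the iron-sulfur subunit), 120 (Sdha, the flavoprotein that oxidises succinate) and 102 (Sdhc, the other anchor). Ndufa4, grouped with complex I by its symbol but placed in complex IV today, was at 552 CPM per kilobase. Of the other complex I genes the small accessory subunit gene Ndufa7 was highest at 314, whereas Ndufs1, the largest subunit, which carries iron-sulfur clusters, was at 57.0 CPM per kilobase. These levels are means over all libraries of the lines, including the 6 that stood apart.

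For subunits with a tissue-restricted counterpart, reads fell almost entirely on the ubiquitous gene. Cox4i1 averaged 465 CPM over lines, while its lung-enriched counterpart Cox4i2 had 17 counts in all 20 libraries together. The muscle form Cox6a2 had 9 counts in all, Cox8b had 1, and Cox7b2 and Cox8c had 0. Cox7a1, the heart and muscle form of subunit 7a, was at 0.291 to 1.67 CPM per line, against 141 to 267 CPM for Cox7a2. Cox6b2, a form known from testis, was at 0.291 to 3.50 CPM and varied 12.0-fold between lines, against 1.70-fold for Cox6b1. Its highest line was the wild-type line 1269 (3.50 CPM) and its lowest the KO line 1270 (0.291 CPM). Ndufa4l2, a relative of Ndufa4 induced by low oxygen, reached at most 0.651 CPM. The 3 genes for the same mature ATP synthase subunit c were unequal per length: Atp5g3 had 625, Atp5g2 80.9 and Atp5g1 42.7 CPM per kilobase. The order of the last 2 rests on the lengths used, 586 bases for Atp5g2 and 2675.5 for Atp5g1. In CPM per line without the 6 libraries, Atp5g1 (77.1 to 137) was above Atp5g2 (34.4 to 44.2).

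Some members are read with less certainty. Ndufs5 had 0 counts in every library, and Atp5l (0.825 CPM over lines) and Ndufb4 (9.50 CPM) were low. The 7 symbols Atp5l, Atp5g2, Atp5h, Cox7c, Ndufs3, Ndufs5 and Uqcrb have at least 1 other gene that is 98% identical over 50% or more of the transcript, a pseudogene for 6 of them, and how the counting treated such reads is not known here.

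Loss of p53 was compared first, since the design set organoids with p53 against organoids without it. No member was called. With the 2 dysplasia classes weighted equally, edgeR called 0 of 78 members at an adjusted p of 0.05, with a background of 0% (0 of 13476 genes), and 0 members had an unadjusted p under 0.05. DESeq2 and limma-voom also called 0 members, here and in the other comparisons between lines. The median log2 fold change of the members, KO against wild type, was -0.05 (24 positive and 54 negative), beside -0.01 over all genes. The smallest p belonged to Ndufs1, with a log2 fold change of -0.21 ± 0.11 (SE), and the next to Sdha, at -0.18 ± 0.11. In none of the 5 comparisons between lines did edgeR call any gene, Trp53 included, so the absence of calls does not show that members were unchanged.

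Within the non-dysplastic lines edgeR likewise called 0 of 78 members (background 0%), with 0 at an unadjusted p under 0.05 and a median of -0.02. In dysplastic lines the call was again 0 of 78 (background 0%), with 0 members at an unadjusted p under 0.05 and a median of -0.08. There the smallest values of p were those of Sdha, at -0.34 ± 0.16 (SE), and Ndufs1, at -0.33 ± 0.16. Sdha read 376 and 352 CPM in the wild-type dysplastic lines 565 and 752, against 287 and 288 CPM in the KO lines 794 and 801. How many genes separate so few lines was not counted. Over all lines, 0 of 78 members had every KO line below, or every KO line above, all wild-type lines, with or without the 6 last libraries. In the libraries numbered 1, 1 of 77 members, Atp5b, had every KO line below and 0 had every KO line above. The share over all genes was not counted for these, so the counts cannot be read against a background. The interaction of genotype and dysplasia was called for 0 of 78 members (background 0%), with 0 members at an unadjusted p under 0.05 and a median of -0.05. Sco2, a copper chaperone for complex IV known as a p53 target, had a log2 fold change of -0.44 ± 0.23 over lines and was not called.

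Dysplastic lines were then compared with non-dysplastic ones, weighting the genotypes equally. With all libraries, edgeR called 0 of 78 members (background 0%), and Ndufs1 alone had an unadjusted p under 0.05, at a log2 fold change of -0.26 ± 0.11 (SE, adjusted p = 0.836 in edgeR). The members leaned to lower values in dysplasia, 68 negative and 10 positive, with a median of -0.17 beside -0.02 over all genes. No member had all 4 dysplastic lines below all 4 non-dysplastic lines, where 1.31% of all genes did. Ndufs1 read 164, 172, 143 and 172 CPM in lines 300, 1269, 650 and 1270, and 161, 143, 118 and 124 CPM in lines 565, 752, 794 and 801. Its 2 dysplastic KO lines were the lowest.

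Members whose lines did not overlap were then counted with fewer libraries. Without the 6 last libraries, 14 of 78 members had all dysplastic lines below all non-dysplastic lines and 0 had them above, with a background of 1.78% below among 13220 genes. Using only the libraries numbered 1, 1 per line, which also leaves out libraries that did not stand apart, the count was 27 of 77 below and 0 above, with a background of 4.91% among 12597 genes. The median log2 fold change was -0.20 with libraries numbered 1 and -0.21 without the 6 libraries, beside 0.00 over all genes in both. In each of these fits 26 members had an unadjusted p under 0.05 and edgeR called 0, while among all genes 16.8% and 8.34% had such a p. Both ways of leaving out libraries were chosen with the values known.

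Every complex had members among the 27. Ndufa5, an accessory subunit of the complex I arm that protrudes into the matrix, read 48.8, 57.2, 52.8 and 59.0 CPM in the libraries numbered 1 of lines 300, 1269, 650 and 1270. In lines 565, 752, 794 and 801 it read 46.8, 47.2, 35.6 and 31.0 CPM, with the KO lines lowest. Without the 6 libraries its log2 fold change was -0.43 ± 0.09 (SE, adjusted p = 0.399 in edgeR). Sdhd, a membrane anchor of complex II, read 418, 397, 431 and 454 CPM in the non-dysplastic lines in that order, and 346, 378, 266 and 274 CPM in the dysplastic ones. Uqcrc2, a core protein of complex III, read 359, 372, 360 and 376 CPM against 345, 343, 288 and 259 CPM. For Cox6a1 of complex IV the values were 317, 290, 303 and 324 CPM against 247, 278, 279 and 188 CPM. Atp5a1 of complex V read 1652, 1650, 1563 and 1573 CPM against 1530, 1560, 1390 and 1235 CPM, so lines 650 and 752 nearly met. Without the 6 libraries, where line 1269 keeps both of its own, Ndufa5 still did not overlap (48.2 to 60.8 against 32.5 to 45.0 CPM). Sdhd, Uqcrc2, Cox6a1 and Atp5a1 did overlap there. Line 1269 then read 335 CPM for Sdhd, beside 350 and 378 CPM in lines 565 and 752, and 337 CPM for Uqcrc2, beside 342 and 343 CPM. The 5 parietal cell markers tested were 3 positive and 2 negative in dysplasia with all libraries, with a median of 0.05. All 8 genes listed summed to 127 to 236 CPM in dysplastic and 199 to 742 CPM in non-dysplastic lines. Gif in line 1270 (609 CPM) and Aqp4 in line 1269 (425 CPM) gave most of the highest sums. The proton pump gene Atp4a was at 0.676 to 1.87 CPM in every line, so these sums do not measure parietal cells. All dysplastic lines show the female pattern while 2 of the 4 others do not. With a term for sex the median was -0.20 in the libraries numbered 1 and -0.18 without the 6 libraries, but 0.12 with all libraries. Lines 300 and 650, which lack the female pattern, are also the only non-dysplastic lines whose last library stood apart. With all libraries, sex and the shift of the last library therefore cannot be told apart among non-dysplastic lines. The part of parietal cell markers in the difference with dysplasia was not tested. In these bulk samples, fewer cells of a type and less RNA per cell cannot be told apart.

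The score of the members, their mean log2(CPM + 1) over the 78 tested, was also read per line. With all libraries it was 6.78 ± 0.17 (SD, n = 4) in dysplastic and 6.91 ± 0.28 in non-dysplastic lines, and 6.83 ± 0.22 in KO and 6.87 ± 0.26 in wild-type lines. In the libraries numbered 1 it was 6.70, 6.69, 6.74 and 6.70 in lines 300, 1269, 650 and 1270 and 6.55, 6.65, 6.56 and 6.29 in lines 565, 752, 794 and 801. Without the 6 libraries it was 6.52 ± 0.13 (SD, n = 4) in dysplastic and 6.71 ± 0.08 in non-dysplastic lines. The ranges of these line scores then overlapped slightly, 6.33 to 6.61 against 6.60 to 6.75.

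**Figure D1:**
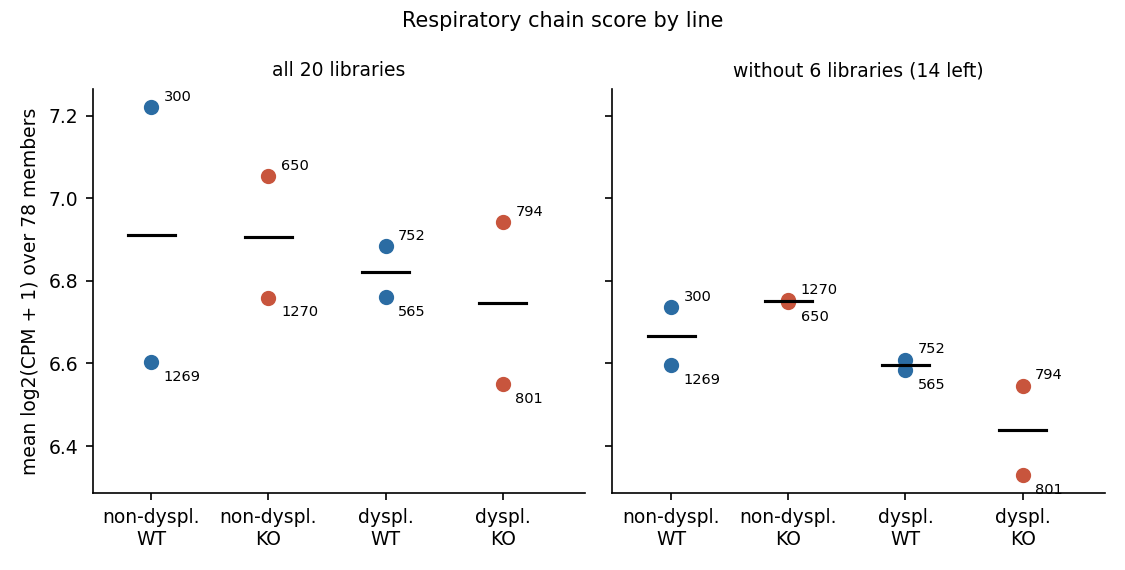
Mean log2(CPM + 1) over 78 respiratory chain members (y axis) for each line, by dysplasia and genotype (x axis), with all libraries on the left and without the last libraries of 6 lines on the right. Points are lines, bars are means of 2 lines; on the right the dysplastic lines lie between 6.33 and 6.61 and the non-dysplastic lines between 6.60 and 6.75.

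Differences between libraries of a single line were larger than those between groups of lines. The last library was compared with the other libraries of its line, with line as a block. Of 78 members, 68 rose and 1, Sdha, fell, against a background of 26% of 13141 genes higher and 24.1% lower. The median log2 fold change of the members was 0.72, beside 0.02 over all genes. The rise took in 31 of 36 members of complex I (median 0.75), 7 of 8 of complex III (0.79), 13 of 13 of complex IV (0.81) and 14 of 17 of complex V (0.65). In complex II, Sdhb, Sdhc and Sdhd rose while Sdha fell.

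**Figure D2:**
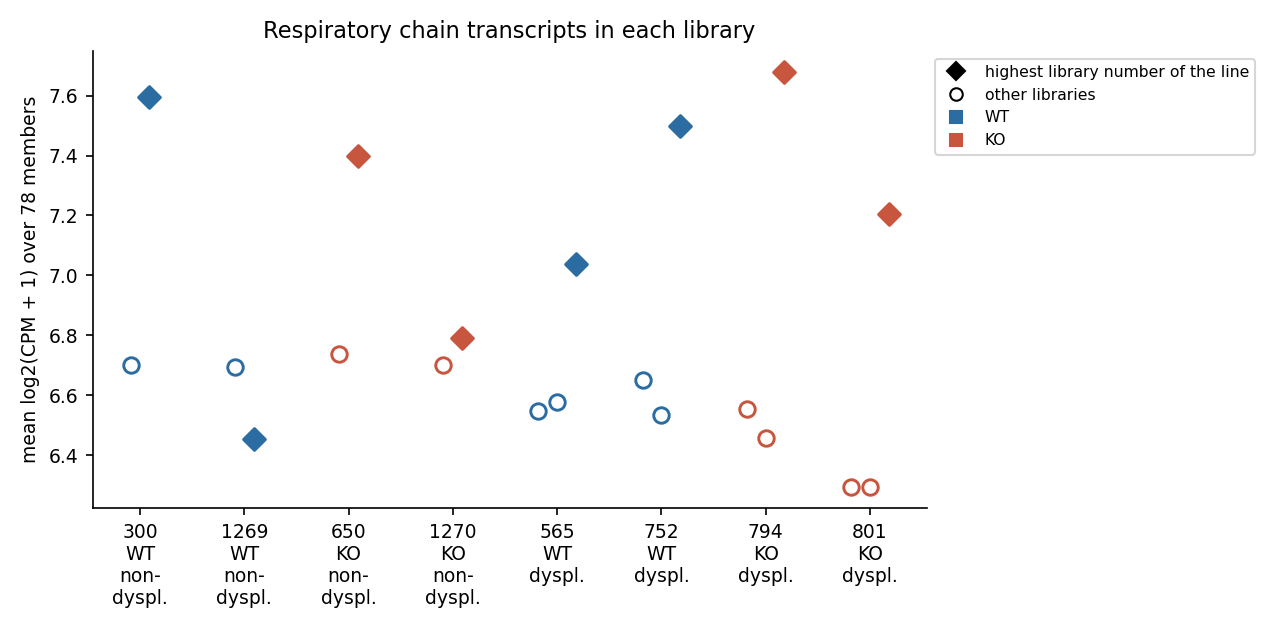
Mean log2(CPM + 1) over 78 respiratory chain members (y axis) in each of the 20 libraries, by line (x axis). Diamonds are the last library of a line and circles the others; 6 diamonds lie between 7.04 and 7.68, those of lines 1269 and 1270 lie at 6.45 and 6.79, and all circles lie between 6.29 and 6.74.

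The lines did not behave alike. The median difference of the members, last library minus the mean of the others in log2(CPM + 1), ranged over the 6 lines from 0.50 (line 565) and 0.76 (line 650) through 0.95 (line 801), 0.96 (line 300) and 1.01 (line 752) to 1.31 (line 794). It was 0.09 in line 1270 and -0.27 in line 1269, where only 9 of 78 members were higher. Over the 6 lines other than 1269 and 1270, 65 of 78 members (83.3%) were higher in the last library of every line, as were 25.6% of all genes. The members took 1.85% to 2.39% of all counts in those 6 libraries and 1.17% to 1.76% in the other 14. Both genotypes and both dysplasia classes are among the 6 lines, though unevenly for dysplasia. Every dysplastic line is among them, but of the non-dysplastic lines only 300 and 650. When only lines 1269 and 1270 were fitted, the median of the members was -0.09. In edgeR 0 members were called there, but so few libraries leave that count unreadable.

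**Figure D3:**
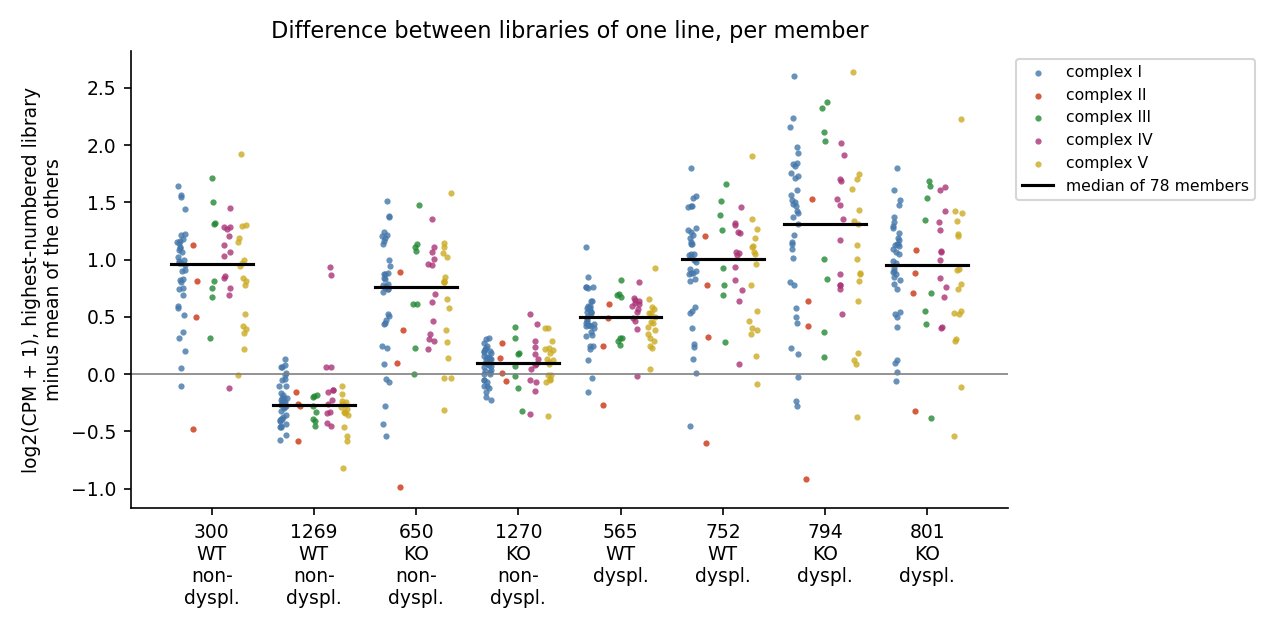
Difference in log2(CPM + 1) between the last library and the mean of the other libraries of a line (y axis) for each of 78 members, by line (x axis) and coloured by complex. Black bars are medians, from -0.27 in line 1269 to 1.31 in line 794.

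Atp5e, Uqcrh, Ndufb8 and Ndufa7 rose most among members that are not near 0. Atp5e, the epsilon subunit of the ATP synthase stalk, rose by 1.51 ± 0.25 (SE, adjusted p = 0.000470). It read 107 and 410 CPM in libraries 1 and 2 of line 300, 116 and 349 CPM in those of line 650, and 102 and 84.9 CPM in those of line 1269. In line 794 it read 116, 104 and 692 CPM in libraries 1, 2 and 3, and in line 801 it read 79.1, 73.0 and 361 CPM. The last library was thus the highest in each of these lines except 1269. Uqcrh rose by 1.27 ± 0.21 (SE, adjusted p = 0.000493), from 223 and 225 to 1167 CPM in line 794 and from 244 and 249 to 783 CPM in line 752. Ndufb8, a membrane-arm subunit of complex I, rose by 1.26 ± 0.20 and Ndufa7 by 1.25 ± 0.21. Uqcr11, Uqcr10 and Uqcrq, small subunits of complex III, rose by 1.16, 1.15 and 1.09. Among well-expressed complex IV members Cox4i1 led, at 1.08 ± 0.17 (SE, adjusted p = 0.000445). It read 337, 327 and 518 CPM in line 565 and 359, 306 and 1251 CPM in line 794. The low gene Cox7a1 had a log2 fold change of 1.63 ± 0.26 from at most 3.59 CPM in any library.

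Not all members rose. Sdha fell by 0.47 on the log2 scale, with an SE of 0.10 (edgeR, adjusted p = 0.00178). It read 424 and 305 CPM in line 300, 428 and 215 CPM in line 650, and 414 and 341 CPM in line 1269, with the last library given second. In line 752 it read 380, 394 and 254 CPM and in line 794 it read 314, 341 and 173 CPM. Line 1270 was the exception, at 381 and 421 CPM. Its partner Sdhd rose by 0.81 ± 0.17, from 257 and 266 to 757 CPM in line 794, so the genes of complex II moved apart inside a line. Ndufs1 (-0.14 ± 0.08, adjusted p = 0.137), Atp5a1 (-0.06 ± 0.09) and Ndufa10 (0.01 ± 0.08) were not called. Further members not called included Ndufv1 (0.19), Uqcrb (0.36, adjusted p = 0.0582), Ndufa4l2 (-1.02), Atp5s (0.23) and Atp5sl (0.14). Fitted over only the 6 lines, Atp5s (0.36, adjusted p = 0.0260) and Atp5sl (0.21, adjusted p = 0.0241) were called higher in edgeR. Atp5b rose by 0.24 ± 0.09 (SE, adjusted p = 0.0286), a call that was lost without line 300, 565, 752 or 801, with total counts only (adjusted p = 0.0906) and with no low-count filter (adjusted p = 0.0996). Without those lines its log2 fold change was 0.23, 0.22, 0.20 and 0.17. Atp5g1 rose by 0.32 ± 0.11 (SE, adjusted p = 0.0195) and lost its call without line 565 (0.30), 752 (0.29), 801 (0.26) or 794 (0.24).

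**Figure D4:**
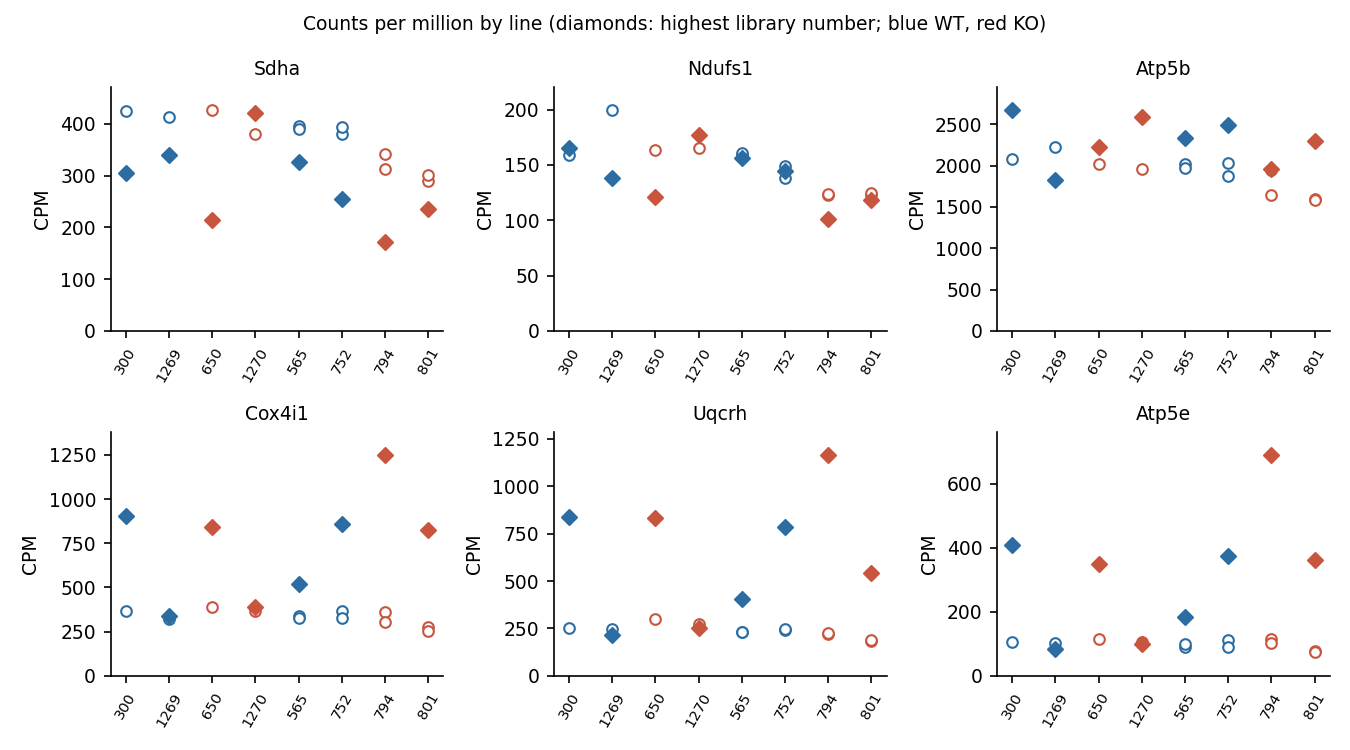
TMM-scaled CPM (y axes, from 0) of 6 members in every library, by line (x axes). Diamonds are the last library of a line, circles the others; Cox4i1, Uqcrh and Atp5e are higher in the diamonds of 6 lines, up to 1251, 1167 and 692 CPM, whereas Sdha is lower in the diamonds of every line but 1270.

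For comparison, library 2 was set against library 1 in the 4 lines with 3 libraries. There edgeR, DESeq2 and limma-voom each called 0 members, of 76 tested in edgeR, with 6 at an unadjusted p under 0.05, where the background was 8.77% of 12738 genes higher and 4.62% lower. The median of the members was -0.05. By line the median difference ran from -0.12 to 0.01, so the first and the second library of these lines were close in the median of these genes. Single members differed more in either direction. Cox5b read 129 and 75.4 CPM in libraries 1 and 2 of line 752, and Ndufb2 18.3 and 32.1 CPM in those of line 565.

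Transcript length moved with the difference in the 6 lines whose last library stood apart, and not in lines 1269 and 1270. The members had a median length of 746 bases (321.5 to 2900), against 2699 over all genes tested. Across 12628 genes of the same fit, Spearman's rho between length and log2 fold change was -0.62, and across the 78 members it was -0.58. Line by line, rho over all genes was between -0.63 and -0.50 in the 6 lines, but 0.05 in line 1269 and -0.09 in line 1270. Over the members it was between -0.55 and -0.39 in the 6 lines, and -0.16 and 0.04 in lines 1269 and 1270. Genes share these libraries and are not independent replicates, so the values are descriptions. Genes were split into 5 classes of equal size by length. In the shortest class (315 to 1555 bases) 63.2% of all genes were higher. That class held 64 members, of which 60 rose with a median of 0.80, beside a median of 0.46 for the other genes in it. In the next class (1556 to 2297 bases) 9 members had a median of 0.24, beside 0.17. In the middle class (2298 to 3138 bases) 5 members had a median of -0.06, beside -0.03 for the rest, and no member was longer than that. Of these 5, Ndufb2 (1.14 ± 0.20, 2413 bases) and Atp5g1 (2675.5 bases) rose, Sdha fell, and Ndufs1 and Atp5a1 were not called. Lengths are medians over annotated transcripts, so the class of a gene may differ from that of the transcript expressed. Among short members Uqcrb (535 bases) and Ndufa4l2 (934 bases) were not called. Sdha, at 2900 bases, is the longest member. The part of transcript length in these differences was not tested. In the dysplasia comparison with libraries numbered 1, rho between length and log2 fold change was -0.09 over all genes and -0.08 over the members.

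**Figure D5:**
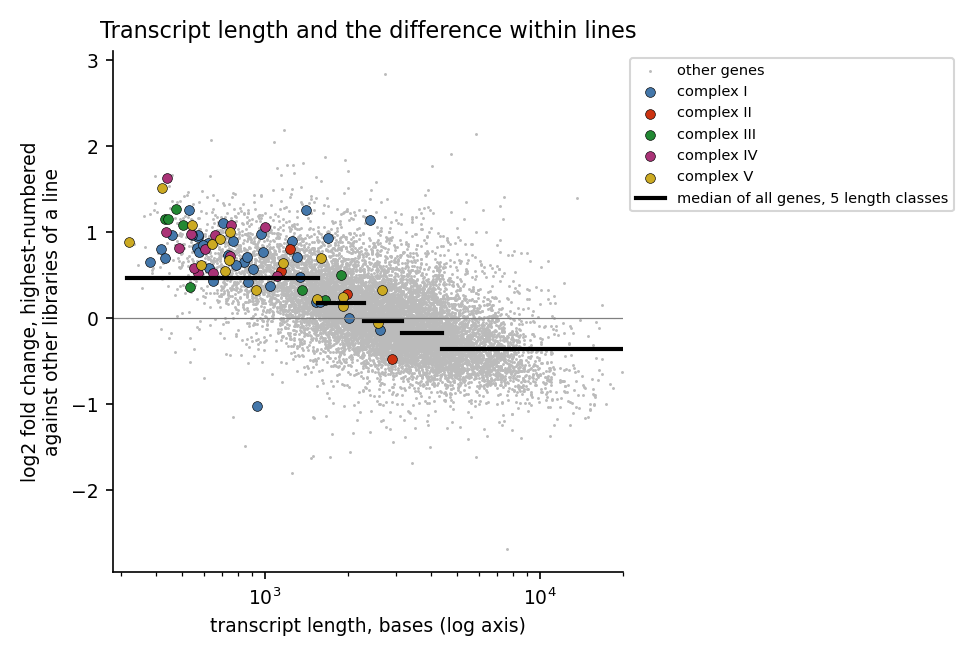
Log2 fold change between the last and the other libraries of a line (y axis) against transcript length in bases (x axis, log scale). Grey dots are other genes, coloured points are members by complex, and black bars are medians of all genes in each of 5 length classes, falling from 0.47 to -0.35; the longest member, Sdha, lies at -0.47.

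Assembly factors, which build the complexes without staying in them, are from a separate list. Of 44 tested, 27 rose and 2 fell in the last libraries (median 0.37), where 26% of all genes were higher and 24.1% lower. Uqcc2, an assembly factor of complex III, rose by 1.28 ± 0.20 and Cox17, a copper chaperone of complex IV, by 0.85 ± 0.14. Of 7 subunits and partners whose symbols lie outside the rule, 6 rose, with a median of 0.67. They include Cycs, which is cytochrome c, at 0.44 ± 0.11, and Cyc1, the cytochrome c1 subunit of complex III, at 0.50 ± 0.11. In dysplastic against non-dysplastic lines with all libraries, 39 of the 44 assembly factors were negative (median -0.14) and 0 were called.

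Because most members moved together, their promoters were read from RefSeq (GRCm38.p6, which differs from the build of the counts) for the 69 of 84 members found there. Windows ran from 250 bases before to 50 after the start, and 3 motifs of factors known for respiratory genes were searched on both strands. A gene counted when any of its promoters matched. The 69 include members that were not tested, and tested genes were found by their symbol in the count table only. The NRF1 core CGCATGCG, which reads the same on both strands, was present in 9 of 69 members (13.0%). It was present in 2.07% of all 27025 genes with a promoter and in 4.25% of the 9876 tested genes found. The YY1 core AAGATGGC (reverse GCCATCTT) was present in 11 members (15.9%), in 3.19% of all these genes and in 5.14% of the tested ones. The ETS core CCGGAAG (reverse CTTCCGG), a site for factors such as GABP, was present in 16 members (23.2%), in 9.93% of all these genes and in 19.6% of the tested ones. An ETS match and a YY1 match can share the letters AAG. The 250 bases before the start are printed for 3 members of different complexes that rose in the last libraries and for Sdha, which fell. They are picked examples and do not stand for the other members. Motif matches are in capitals, and the bases run 5′ to 3′ along the gene.
Uqcr11 (chr10:80406822-80407071, minus strand): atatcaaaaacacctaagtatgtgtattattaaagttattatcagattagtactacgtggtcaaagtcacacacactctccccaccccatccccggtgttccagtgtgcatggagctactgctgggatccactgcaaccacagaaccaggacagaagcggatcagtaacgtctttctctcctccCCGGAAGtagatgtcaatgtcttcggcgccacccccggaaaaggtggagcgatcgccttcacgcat
Cox6a1 (chr5:115348959-115349208, minus strand): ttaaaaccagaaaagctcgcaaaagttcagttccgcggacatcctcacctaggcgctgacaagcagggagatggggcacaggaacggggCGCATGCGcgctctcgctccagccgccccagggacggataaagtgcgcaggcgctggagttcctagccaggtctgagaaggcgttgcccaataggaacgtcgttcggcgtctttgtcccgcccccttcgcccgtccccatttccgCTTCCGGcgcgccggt
Atp5e (chr2:174464102-174464351, minus strand): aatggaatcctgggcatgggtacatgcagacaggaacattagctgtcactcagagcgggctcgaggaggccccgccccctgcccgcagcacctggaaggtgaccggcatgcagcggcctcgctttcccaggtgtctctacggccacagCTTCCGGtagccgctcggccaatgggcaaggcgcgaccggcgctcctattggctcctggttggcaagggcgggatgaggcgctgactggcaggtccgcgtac
Sdha (chr13:74350241-74350490, minus strand): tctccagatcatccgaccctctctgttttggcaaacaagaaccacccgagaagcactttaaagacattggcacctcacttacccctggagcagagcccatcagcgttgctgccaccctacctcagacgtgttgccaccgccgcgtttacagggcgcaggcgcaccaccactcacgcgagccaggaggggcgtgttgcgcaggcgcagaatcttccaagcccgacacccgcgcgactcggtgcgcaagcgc
Uqcr11 and Atp5e hold an ETS core here, Cox6a1 holds an NRF1 and an ETS core, and the Sdha stretch holds none of the 3. Uqcr11 also counts among the 9 members with an NRF1 core, whose match in the 300-base window runs past the end of the printed stretch. Ndufa7, Uqcr10 and Ndufb2 also rose and hold none of the 3 motifs in the 300-base window, whereas Atp5sl, which was not called, holds a YY1 core. The relation of motifs to the rise was not tested. A match describes letters in a window and not a bound site.

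Across the 8 lines the members varied together. For 74 members with a mean log2(CPM + 1) above 3, the median pairwise Pearson r was 0.82, beside 0.01 for all genes, and without the 6 libraries it was 0.74, beside 0.00. The points are the same 8 lines for every pair, and these lines differ in how many libraries and which of them stood apart. The median SD of the members across lines was 0.25 with all libraries and 0.18 without the 6, on the log2(CPM + 1) scale, where all genes had 0.21 and 0.20.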

How the data were processed

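Messenger RNA of 20 organoid libraries was sequenced. Per the labels' protocols, libraries were made with a Kapa mRNA kit from 100 ng of RNA. The submitters' processing notes name STAR 2.5, bcl2fastq and the mouse genome mm9. The counter, annotation and use of strand: not given in the sources used here. The authors deposited 1 table of whole-number read counts for each symbol and library, not normalized. Library totals were 5669521 to 16323270, and at the smallest 1 count is 0.176 CPM.

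Groups came from the labels. For comparisons between groups, counts were summed per line (8 lines), filtered with filterByExpr (13476 genes), scaled by TMM and fitted with 1 mean per combination of genotype and dysplasia (4 residual degrees of freedom) in edgeR 4.0.16 under R 4.3.3. Robust quasi-likelihood tests used Benjamini-Hochberg adjustment over all genes and a threshold of 0.05. Libraries within lines were compared on 13141 genes with line as a block (11 residual degrees of freedom). Scores used a pseudocount of 1. CPM of lines with libraries left out were rescaled. DESeq2 1.42.0 and limma 3.58.1 (voom), other scalings, no filter, a sex term, leaving out lines and leaving out libraries were the alternatives. Scripts were tested on simulated data. Of the symbols, 22452 equalled a RefSeq symbol and 1367 an older one. Named genes were Trp53, members called or at the extremes of each comparison, the highest member and that with the smallest p per complex, isoform pairs, and called members of the lists, up to 3 per comparison. Examples among members whose lines did not overlap, further values per line, and further members within lines were picked with their values in view. The members and lists were chosen with earlier results of these data known.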

Additional observations from a re-analysis of the deposited data

Results flagged for a closer look

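Among the dysplastic lines, Ndufa2, an accessory subunit of complex I, read 152 CPM in line 794, far from the other 3 lines, which lay between 85.5 and 93.4 CPM. In its libraries 1, 2 and 3 the last library was the highest, and without the 6 last libraries line 794 read 89.5 CPM, beside 70.1 to 74.6 CPM. Over the 88 groups of lines examined in this way, chance flags about 1 in 20.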

How the results depend on the processing

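Across the alternatives, 0 members were called in each of the 5 comparisons between lines. For dysplastic against non-dysplastic lines the median of the members was 0.12 with a sex term (52 positive), against -0.17 without it. The lines without the female pattern, 300 and 650, are also the only non-dysplastic lines whose last library stood apart. With all libraries a sex term therefore cannot be told apart from that library difference. In the libraries numbered 1, or without the 6 last libraries, the median with a sex term stayed negative. Leaving out 1 line at a time moved the median of KO against wild type in non-dysplastic lines from -0.27 (without line 1269) to 0.35 (without line 300), and that of the interaction from 0.17 to -0.42 for the same lines. Over these refits the median of dysplastic against non-dysplastic lines ran from -0.29 to 0.04, that of KO against wild type from -0.18 to 0.13, and that within dysplastic lines from -0.27 to 0.10. For library 2 against library 1, 2 members were called with total counts only, 2 with no low-count filter, and 0 to 2 when a line was left out (2 without line 801). The fit given above, with all of these lines, called 8.77% of all genes higher and 4.62% lower. For the last libraries, 62 to 71 members were called higher and the median was 0.60 to 0.83 when a line was left out. With all lines, 26% of all genes were called higher. With only lines 1269 and 1270 the median was -0.094 and 0 members were called, a count that so few libraries leave unreadable. These members had the opposite sign there: Ndufb8 -0.011, Uqcrh -0.15, Atp5e -0.15, Ndufa4 -0.27, Sdhd -0.31, Uqcrc2 -0.16, Atp5g1 -0.23, Atp5g2 -0.029, Atp5g3 -0.14, Cox6a1 -0.074, Cox6b1 -0.10, Cox7a2 -0.077, Cox7b -0.18 and Cox8a -0.13. The causes were not tested. With the replicate number as a block in limma-voom (replicate block), the medians were -0.01 for KO against wild type and -0.44 for dysplastic against non-dysplastic, with 28 members at an unadjusted p under 0.05 and 0 called. Library deviations correlated at a median of 0.13 between lines for the same number (-0.84 to 0.82). In the lines with 3 libraries, however, library 3 always had the highest member score, 7.04 to 7.68 beside 6.29 to 6.65. The number thus carries a shared difference there, and only dysplastic lines have a library 3. Depth limits Atp5l, Cox6b2, Cox7a1 and Ndufa4l2, which had few counts per library.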

Other observations

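Other genes of mitochondria and translation were read in the same comparison of the last library with the other libraries of its line. All 80 tested genes with cytosolic ribosomal protein symbols rose, with a median log2 fold change of 0.83 and a median transcript length of 774 bases. Of 77 mitochondrial ribosomal protein genes, which serve translation of the subunits encoded in mitochondrial DNA, 72 rose and 0 fell (median 0.63, median length 1223 bases). The mitochondrial carriers of the Slc25 family had 11 higher and 9 lower of 40 (median 0.00, median length 2508 bases), near the 26% higher and 24.1% lower over all genes.

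Of 12 regulators of mitochondrial biogenesis tested, 4 rose and 4 fell, where 26% of all genes were higher and 24.1% lower. Ppargc1a and Ppargc1b, which encode the coactivators PGC-1alpha and PGC-1beta, fell by 0.71 and 0.64 on the log2 scale, with SEs of 0.15 and 0.16, and Gabpa, an ETS factor, fell by 0.45. Esrra, a nuclear receptor that works with PGC-1, rose by 0.43 ± 0.09 (SE, adjusted p = 0.00155 in edgeR), and Tfam, which packages mitochondrial DNA, rose by 0.26 ± 0.09. The median length of these regulators was 3088 bases. In dysplastic against non-dysplastic lines Ppargc1b had a log2 fold change of -0.65 ± 0.20 (SE, adjusted p = 0.700 in edgeR) and was not called.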
